A study of Mus musculus with 8 samples.

Results

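The microRNA processing machinery was followed here through 9 genes: Drosha, Dgcr8, Xpo5, Dicer1, Tarbp2, Ago1, Ago2, Ago3 and Dis3l2. Every probe whose platform annotation carries 1 of these symbols was taken, which gave 14 of the 25697 probes and 9 of the 16593 gene symbols on the array. Ago3 had 4 probes, Drosha and Tarbp2 had 2 each, and each of the other genes had 1. RNA was profiled on single-colour Illumina bead arrays from 4 kidney tumors of Lin28 transgenic mice, called Wilms tumors in the labels, and from 4 control kidneys. Tumor 1 and control 1 came from animals of 5 weeks, and tumors 2 to 4 and controls 2 to 4 from animals of 4 months. The labels call the arrays of a group biological replicates. The sources used here do not give the Lin28 paralogue of the transgene, the promoter that drives it, the strain, the genotype of the control animals or the sex of any animal.

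A microRNA is cut from a long primary transcript in the nucleus by the Microprocessor, which consists of the nuclease Drosha and its RNA-binding partner Dgcr8. Exportin-5, the product of Xpo5, carries the hairpin precursor to the cytoplasm, where Dicer1 with its partner Tarbp2 cuts off the loop and an Argonaute protein takes up the mature strand. Lin28 proteins bind the precursors of the let-7 family, block their cutting and recruit enzymes that add uridines to their ends, and the nuclease Dis3l2 then degrades the tailed precursors. In people, mutations in DROSHA, DGCR8, DICER1 and XPO5 occur in Wilms tumor, and germline loss of DIS3L2 causes Perlman syndrome, which predisposes to it.

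The let-7 precursors are the RNAs on which Lin28 and Dis3l2 meet, so 3 hairpins are shown with the let-7 seed, bases 2 to 8 of the mature strand, and the motif GGAG between the arms in capitals. They were taken from RefSeq on GRCm38.p6, and their levels were not measured on these arrays.
Mirlet7g, chr9:106178840-106178927, plus strand: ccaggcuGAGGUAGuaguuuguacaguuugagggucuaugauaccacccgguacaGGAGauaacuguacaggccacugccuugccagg
Mirlet7a-1, chr13:48538179-48538272, minus strand: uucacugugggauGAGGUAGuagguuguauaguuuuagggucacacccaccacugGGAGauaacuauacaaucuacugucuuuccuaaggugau
Mirlet7b, chr15:85707319-85707403, plus strand: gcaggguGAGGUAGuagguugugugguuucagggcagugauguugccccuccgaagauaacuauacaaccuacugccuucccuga
All 11 mouse let-7 hairpins with both arms in the table share the seed, and 8 of them (72.7%) hold GGAG between the arms, against 52 of 644 mouse hairpins (8.07%). Mirlet7b is shown because it lacks these letters there. GGAG is the motif that the zinc knuckles of Lin28 proteins are known to bind, and a match or its lack is only a description of the sequence.

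Values are the deposited intensities, on a linear scale in arbitrary units, with background already subtracted. The mean over all probes was 274 on every array. The limit of detection was set at 3 times the noise of an array, and values over it were taken as above background, which held for 44.2% to 55.3% of probes, depending on the array. Fold changes are on the scale of log2(intensity + 16), tumors minus controls, which understates the change of dim probes. Each p-value is from limma, adjusted by the Benjamini-Hochberg method over all 15418 probes bright enough to be tested, and a probe was called where it was under 0.05. The median change over all tested probes was 0.33, so member changes are also given relative to that median. Arrays correlated at 0.846 to 0.967 within the tumors, at 0.929 to 0.989 within the controls and at 0.734 to 0.879 between the groups, where tumor 1 gave the highest values (0.841 to 0.879). In whole tissue, a change in the number of cells of a type and a change of RNA per cell cannot be told apart.

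Both subunits of the Microprocessor rose in the tumors. The nuclease Drosha was measured by 2 probes. On the first (ILMN_3066222), tumors 1 to 4 had intensities of 709.5, 566.7, 768.3 and 1046.5, against 415.8, 467.3, 499.1 and 518.9 in controls 1 to 4. Every tumor lay above every control, with tumor 2 nearest to the controls and tumor 4 highest. The means were 773 ± 201 in tumors against 475 ± 45.0 in controls (SD, 4 arrays each). The log2 change was 0.65 (SE 0.21, 95% interval 0.17 to 1.13, limma adjusted p = 0.0349), which is 0.32 above the median of all tested probes. This probe lost its call without tumor 3, tumor 4 or any single control (adjusted p 0.0559 to 0.0903), with the 4-month arrays alone and under 3 of the 4 other array scalings.

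The second Drosha probe (ILMN_3144358) gave the clearer difference. Its intensities were 268.6, 288.3, 326.6 and 412.9 in tumors 1 to 4, against 160.2, 186.5, 139.4 and 147.7 in controls 1 to 4. The groups again did not overlap, and the lowest tumor was 1 and the highest control was 2. Means of 324 ± 63.9 in the tumors and 158 ± 20.6 in the control kidneys (SD, n = 4 a group) gave a log2 change of 0.95 (SE 0.19, 95% interval 0.52 to 1.39, limma adjusted p = 0.00518). It stayed under the threshold in all 21 alternatives in which it had a value, with adjusted p of at most 0.0457.

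Dgcr8, the RNA-binding partner of Drosha, had the largest log2 change among the members in the main setting. The intensities of its probe were 125.7, 202.8, 187.4 and 290.5 in tumors 1 to 4, against 18.1, 107.7, 56.5 and 109.4 in controls 1 to 4. The groups did not overlap, but the controls spread widely: controls 2 and 4 came close to tumor 1, while control 1 lay near background. Means were 202 ± 68.0 (SD) in the 4 tumors and 72.9 ± 44.0 (SD) in the 4 controls, a log2 change of 1.41 (SE 0.43, 95% interval 0.44 to 2.39, limma adjusted p = 0.0270). That change ranked above 88.6% of all tested probes. Without tumor 2, 3 or 4 or control 3 the adjusted p was 0.0561 to 0.0741, and under all 4 other scalings the log2 change was 0.72 to 1.20 with adjusted p of 0.0555 to 0.107, and the call was also lost without the filter on low values.

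Xpo5 codes for the carrier of precursor hairpins out of the nucleus. Its probe had intensities of 249.2, 162.2, 204.9 and 286.7 in tumors 1 to 4, against 63.4, 125.1, 74.0 and 92.2 in controls 1 to 4. No control reached the lowest tumor, tumor 2, and control 2 came nearest. Means of 226 ± 54.0 in tumors against 88.7 ± 27.0 in controls (SD, 4 arrays each) gave a 2.32-fold difference (log2 change 1.21, SE 0.25, 95% interval 0.66 to 1.77, limma adjusted p = 0.00535). Xpo5 was 0.88 above the median of all tested probes. It kept its call in all 23 alternatives run, with log2 changes of 0.62 to 1.37 and adjusted p of at most 0.0309.

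Dicer1, the nuclease that cuts the precursor in the cytoplasm, did not pass the test. Its intensities were 124.8, 131.5, 183.2 and 210.4 in tumors 1 to 4, against 69.7, 87.3, 117.9 and 151.9 in controls 1 to 4. The groups overlapped, because control 4 lay above tumors 1 and 2. The log2 change was 0.56 (SE 0.26, 95% interval -0.04 to 1.15, limma adjusted p = 0.116), with means of 162 ± 41.3 in the tumors and 107 ± 36.1 in the control kidneys (SD, n = 4 a group). The interval reaches from just below 0 to above the log2 change of the first Drosha probe. Dicer1 passed under 2 of the 23 alternatives, with array weights (adjusted p = 0.0148) and with the replicate number as a block (adjusted p = 0.0362). Under the 4 other scalings its log2 change was 0.07 to 0.26 (adjusted p 0.413 to 0.833).

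Tarbp2, the double-stranded RNA-binding partner of Dicer1, had the smallest adjusted p of the members. The first of its 2 probes (ILMN_2939990) had intensities of 205.3, 156.3, 182.1 and 209.7 in tumors 1 to 4, against 70.1, 79.2, 61.9 and 76.0 in controls 1 to 4. Each group was tight and the gap between them was wide, since every tumor was well above the highest control. Means of 188 ± 24.6 (SD) in the 4 tumors and 71.8 ± 7.60 (SD) in the 4 controls gave a log2 change of 1.21 (SE 0.17, 95% interval 0.83 to 1.60, limma adjusted p = 0.00111). It kept its call in all 23 alternatives run, with log2 changes of 0.59 to 1.34 and adjusted p of at most 0.0122.

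The second Tarbp2 probe (ILMN_2649955) moved the same way. Its intensities were 86.7, 49.3, 103.0 and 103.6 in tumors 1 to 4, against 39.7, 33.8, 38.5 and 32.6 in controls 1 to 4. Tumor 2 was the lowest tumor and still lay above every control. The log2 change was 0.92 (SE 0.22, limma adjusted p = 0.0110), and the call was lost under 3 of the 4 other scalings (adjusted p 0.156 to 0.177). Prkra, the gene of the other RNA-binding partner of Dicer1 and no member of the 9, averaged 839 ± 144 in tumors against 359 ± 117 in controls (SD, 4 arrays each), a log2 change of 1.23. It was picked for its role after its values had been seen.

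**Figure D1:**
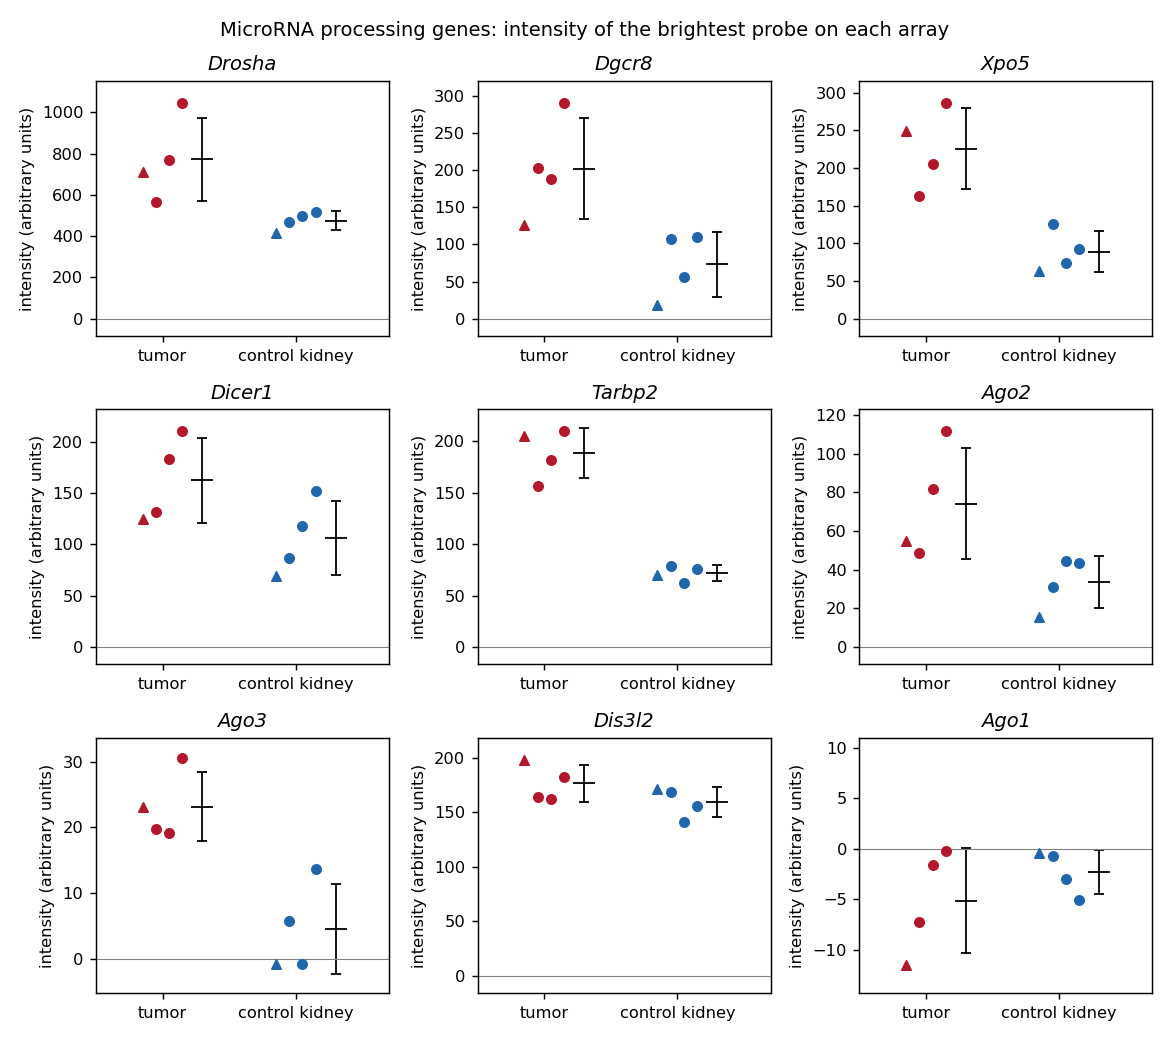
Intensity of each of the 9 microRNA processing genes on each array, by the gene's probe with the highest mean, in arbitrary units on a linear axis, with tumors left of controls. Each point is 1 array, triangles are the 5-week animals, and the black bar is the mean ± SD (n = 4). Drosha, Dgcr8, Xpo5, Tarbp2, Ago2 and Ago3 show no overlap between the groups, Dicer1 and Dis3l2 overlap, and Ago1 stays below 0.

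Of the Argonautes, which hold the mature microRNA and bind its targets, Ago2 was called higher, Ago3 was called higher by probes near background, and Ago1 was not measured above background. Ago2, the Argonaute that can also cut its target, had intensities of 54.6, 48.6, 81.9 and 111.6 in tumors 1 to 4, against 15.5, 31.0, 44.6 and 43.4 in controls 1 to 4. The groups did not overlap, but tumor 2 was only slightly above control 3, and control 1 was not above its background limit of 16.5. Means were 74.2 ± 28.9 in the tumors and 33.6 ± 13.6 in the control kidneys (SD, n = 4 a group), with a log2 change of 0.85 (SE 0.29, 95% interval 0.19 to 1.52, limma adjusted p = 0.0428). The call was lost in 13 of the 22 alternatives with a value. These include all 4 other scalings (log2 change 0.23 to 0.61, adjusted p 0.111 to 0.361) and the fits without tumor 3, tumor 4 or any single control (adjusted p 0.0505 to 0.109).

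Ago3 was dim on all 4 of its probes. The probe with the highest mean (ILMN_2870191) had intensities of 23.1, 19.8, 19.2 and 30.6 in tumors 1 to 4, against -0.8, 5.7, -0.8 and 13.7 in controls 1 to 4. The groups did not overlap, and 3 tumors and 1 control were above background. The log2 change was 0.95 (SE 0.24, 95% interval 0.41 to 1.49, limma adjusted p = 0.0125), with means of 23.2 ± 5.24 (SD) in the 4 tumors and 4.45 ± 6.89 (SD) in the 4 controls, and it lost its call under 3 of the 4 other scalings (adjusted p 0.0506 to 0.112). With most controls not above background, the size of this change is not settled: it was 0.24 under normexp correction and 2.43 under quantile normalization with a floor of 1.

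The other Ago3 probes were not above background in any control. One probe (ILMN_1233354) read 16.1, 9.3, 11.3 and 27.8 in tumors 1 to 4, against -6.7, 6.0, 6.1 and 5.9 in controls 1 to 4. It was above background in 2 tumors and in no control, so the size of its change is not settled. The probe was called higher in tumors (limma adjusted p = 0.0484), a call lost in 15 of 20 alternatives. Another probe (ILMN_2642288) read -6.5, 24.7, 17.5 and 45.3 in tumors 1 to 4, against 3.2, 7.4, 1.1 and 9.7 in controls 1 to 4. Because tumor 1 lay below every control the groups overlapped, and the probe was not called (limma adjusted p = 0.168). It was called without tumor 1, with a log2 change of 1.05 and an adjusted p of 0.0103.

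The last Ago3 probe (ILMN_2634914) and the Ago1 probe were not above background on any array. That Ago3 probe read 11.3, 6.2, 6.8 and 5.4 in tumors 1 to 4, against 11.9, 0.8, 1.6 and 9.3 in controls 1 to 4. The Ago1 probe read -11.5, -7.3, -1.6 and -0.2 in tumors 1 to 4, against -0.4, -0.7, -3.0 and -5.1 in controls 1 to 4. Both were under the filter on low values and were not tested, so these arrays give no direction for Ago1.

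Dis3l2, the nuclease for uridine-tailed let-7 precursors, showed the smallest change of the tested members. Its intensities were 198.5, 163.9, 161.9 and 182.1 in tumors 1 to 4, against 171.3, 168.8, 141.5 and 155.5 in controls 1 to 4. The groups interleaved: controls 1 and 2 lay above tumors 2 and 3. Means of 177 ± 17.2 in tumors against 159 ± 13.7 in controls (SD, 4 arrays each) gave a log2 change of 0.14 (SE 0.16, 95% interval -0.23 to 0.50, limma adjusted p = 0.524). Relative to the median of all tested probes Dis3l2 stood at -0.20, and under the 4 other scalings its log2 change was -0.33 to -0.17 and was not called (adjusted p 0.165 to 0.438).

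**Figure D2:**
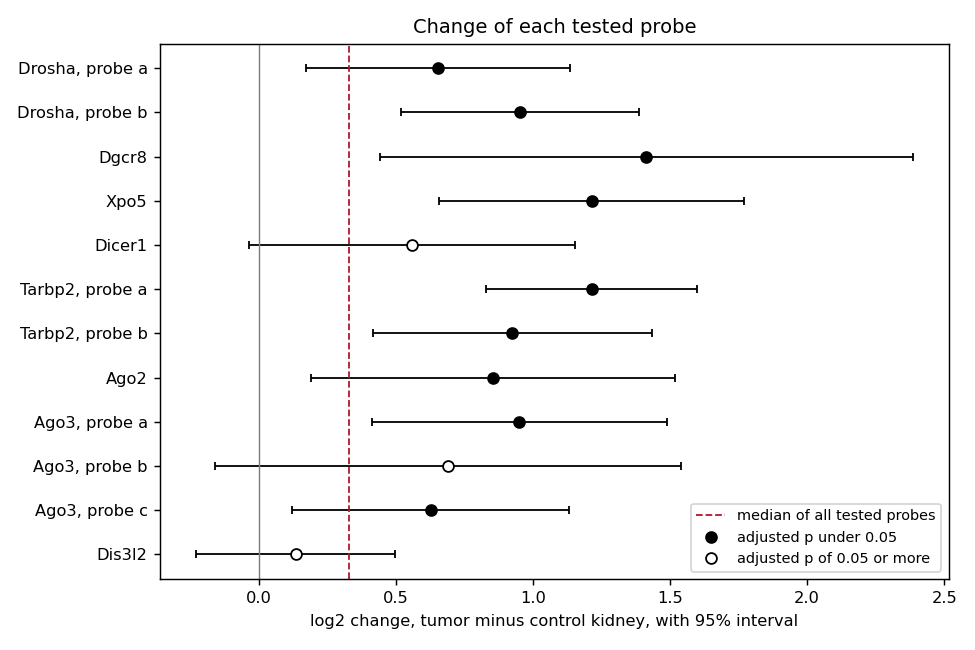
Log2 change, tumors minus controls, of each tested probe of the microRNA processing genes, with its 95% interval (filled, adjusted p under 0.05; probes a, b and c in order of brightness). The dashed line is the median change of all tested probes (0.33). Dgcr8, Xpo5 and the first Tarbp2 probe lie farthest to the right, and the intervals of Dicer1, Ago3 probe b and Dis3l2 reach below 0.

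Of the 14 probes, 12 passed the filter on low values, and 9 of these were called higher and none lower. Over all tested probes, 31.0% were called higher and 11.5% lower. All 12 changes were above 0, so none was lower at an unadjusted p under 0.05 either. Over all tested probes, 10255 of 15418 changes were above 0. The median log2 change was 0.89 over the 12 member probes and 0.33 over all tested probes. Relative to the median of all, the change was 1.08 for Dgcr8, 0.88 for Xpo5 and the first Tarbp2 probe, 0.62 for the second Drosha probe, 0.52 for Ago2 and 0.23 for Dicer1. Member groups did not overlap for 9 probes, all with tumors higher, while 29.4% of all tested probes had every tumor above every control. Counting each gene once by its probe with the highest mean, 6 of the 8 tested members (Drosha, Dgcr8, Xpo5, Tarbp2, Ago2 and Ago3) were called higher and none lower. Over all 10531 genes with a tested probe, 31.9% were higher and 12.2% lower, with a median change of 0.35 against 0.90 for the members. The filter takes the mean over all arrays, so a dim probe can pass it through the group in which it is high, which touches the 3 tested Ago3 probes. Among probes above background on all 8 arrays, 6 of 8 member probes were called higher, against 31.8% of all such probes.

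The count of called members moved with the scaling. Under quantile normalization 2 of the member genes were called higher, under cyclic loess 2, under normexp correction with quantile normalization 3 and under an equal median 3. These scalings also lowered the share of all probes called higher to 16.8%, 17.1%, 18.5% and 20.8% in that order, and brought the median change of all probes to between -0.03 and 0.09. Xpo5, the first Tarbp2 probe and the second Drosha probe were the member probes that kept their call in every alternative in which they had a value.

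**Figure D3:**
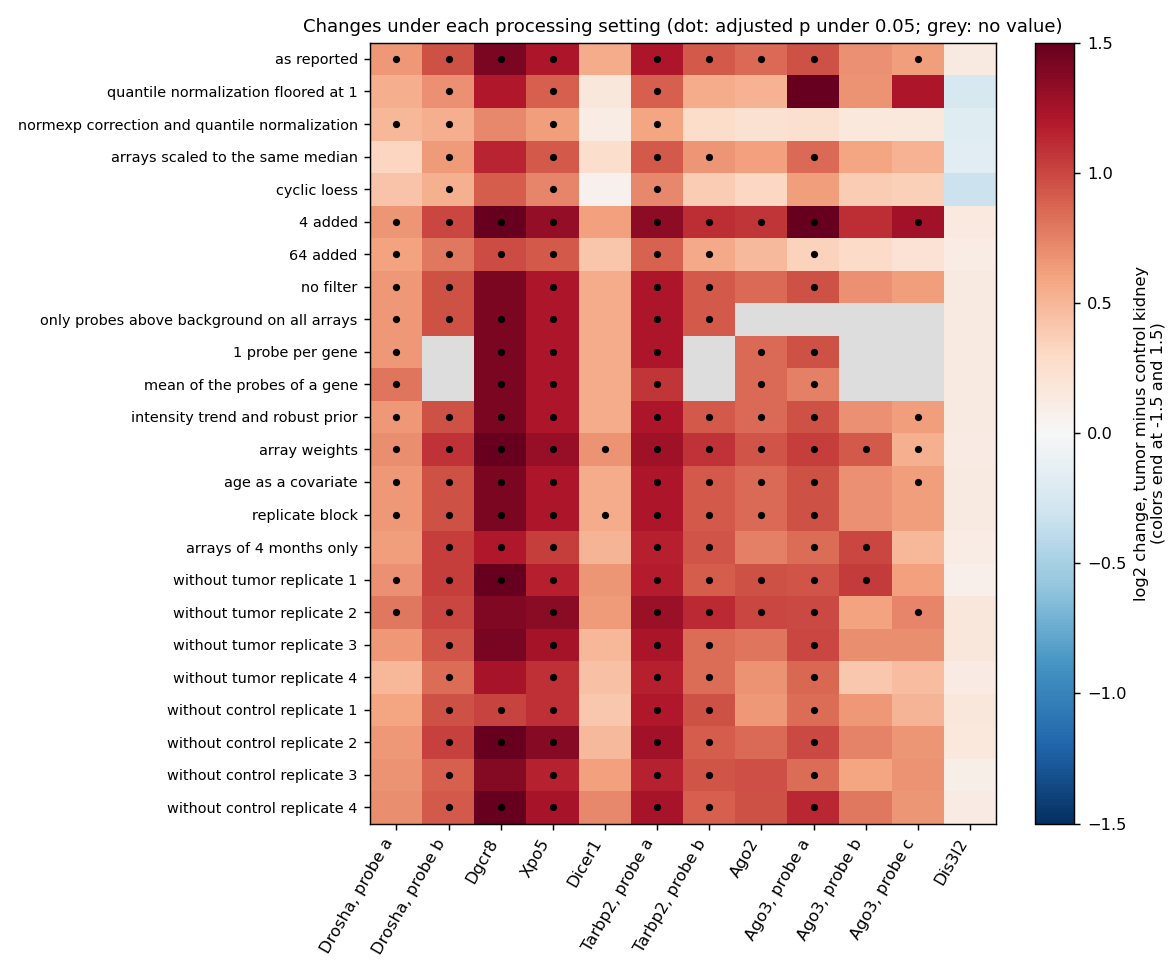
Log2 change, tumors minus controls, of each tested member probe (columns; a, b and c are a gene's probes in order of brightness) as reported and under each of 23 alternatives (rows), as colour. A dot marks an adjusted p under 0.05 and grey marks no value. Xpo5 and Tarbp2 probe a carry a dot in all rows, and Dis3l2 is negative under the 4 other scalings.

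Pairs of members were also compared by how far they moved. Within each array, Xpo5 was set against Dis3l2 as a log2 ratio, which a common factor on an array leaves nearly unchanged. The ratio ran from -0.01 to 0.61 in tumors and from -1.24 to -0.39 in controls, so the groups did not overlap, and the mean difference was 1.08. Xpo5 alone already separated the groups (log2 change 1.21) and Dis3l2 changed little (0.14), so this ratio largely restates Xpo5. How often ratios of other gene pairs separate the groups was not counted. For the ratio of Dgcr8 to Drosha the tumors were higher by 0.76 and for Tarbp2 to Dicer1 by 0.66, but in both the groups overlapped. Drosha to Dicer1 differed by 0.10 and also overlapped. The tumors were higher by 0.655 for Xpo5 to Dicer1, 0.519 for Drosha to Dis3l2, 0.423 for Dicer1 to Dis3l2 and 0.296 for Ago2 to Dicer1. In each of these the groups overlapped. These pairs were chosen with the values known and were not tested.

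The order of the arrays within each group was counted for the members only. It was not counted over all tested probes, so it is not read as a trait of the members. Of the 8 member genes by their probe with the highest mean, tumor 4 was the highest tumor in 7, and tumor 1 in the other one, Dis3l2. Tumor 2 was the lowest tumor in 4. Control 1 alone was the lowest control in 5 and control 3 in 2, both were tied below background for Ago3, and control 4 was the highest control in 4. The array of tumor 1 was the noisiest (9.19 intensity units, against 3.56 to 5.49 on the others), and the array of control 1 had the lowest share of probes above background (44.2%).

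The age of the animals was set against the change in each member. At 5 weeks, with 1 tumor and 1 control, the log2 change was 2.06 for Dgcr8, 1.74 for Xpo5, 1.36 for the first Tarbp2 probe and 1.16 for Ago2. At 4 months, with 3 of each, it was 1.20 for Dgcr8, 1.04 for Xpo5, 1.17 for the first Tarbp2 probe and 0.75 for Ago2. For Drosha's first probe the values were 0.75 at 5 weeks and 0.62 at 4 months. Over all tested probes, 10255 of 15418 changes were above 0 with both ages together, and the share higher at both ages was not counted. Of the 12 tested member probes, 11 had tumors higher at both ages, so this count is not read as a trait of the members. The exception was the Ago3 probe ILMN_2642288, at -0.26 at 5 weeks and 1.01 at 4 months. None of the 12 probes passed the limma test of the difference between the ages, whose smallest adjusted p was 0.525, for that Ago3 probe, and none had an unadjusted p under 0.05. That test rests on a single pair at 5 weeks and 4 residual degrees of freedom, and 234 of all tested probes passed it.

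Genes with a pattern over the 8 arrays close to that of a member were named by the root mean square difference of mean-centred log2 values. For Drosha the nearest were Ppp2r1a (0.065) and Necab2 (0.085), where Drosha itself varied with an SD of 0.430 over the arrays. For Xpo5 they were Lrrc20 (0.077) and Prpf3 (0.121), with an SD of 0.724 for Xpo5. For Tarbp2 they were Gpatch4 (0.067) and Ptbp1 (0.072), with an SD of 0.665 for Tarbp2. For Dgcr8, which had the widest spread of the members (SD 0.998), the nearest were Rep15 (0.211) and Tle4 (0.234). Dicer1 was nearest to Dsg2 (0.099) and Sfmbt1 (0.104), Ago2 to Lsg1 (0.111) and Pogz (0.139), Ago3 to Dnm1l (0.126) and Znrf1 (0.135), and Dis3l2 to Srcin1 (0.076) and Slc45a2 (0.076). The SD over the arrays was 0.463 for Dicer1, 0.615 for Ago2, 0.592 for Ago3 and 0.134 for Dis3l2. The difference of 0.076 is therefore large against the small spread of Dis3l2. With 8 arrays and 15418 probes, close matches are a description only.

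Genes that act beside the members were counted in 4 groups. Of 62 genes listed, 54 had a probe and 48 were tested, of which 30 were called higher, none lower and 18 were not called, with a median log2 change of 0.84 (limma, with none lower at an unadjusted p under 0.05 either). Over all genes 31.9% were called higher and the median was 0.35. Under quantile normalization 19 of the 48 were called higher. Each gene was counted by its probe with the highest mean. Other probes of some called genes hardly changed (Tnrc6a, Cnot7, Tsn), while those of others rose too (Srsf3, Hnrnpa1, Pan2). Some called genes were not above background in every control (Xrn1, Xrn2, Tnrc6b), so the limit of the filter given for Ago3 holds for them too. These genes are examples picked with the values seen.

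The nuclear cofactors include the helicases and RNA-binding proteins that work with the Microprocessor. Of 13 tested, 10 were higher and none lower (median 0.91). Hnrnpa1, which binds the terminal loop of some primary transcripts, had 1662 ± 422 in the tumors and 231 ± 17.1 in the control kidneys (SD, n = 4 a group), a log2 change of 2.73 (SE 0.22, limma adjusted p = 1.11e-04). Hnrnpa1 has near-identical copies in the genome, and its other probe changed by 2.05. Tardbp, which binds Drosha, had 519 ± 123 (SD) in the 4 tumors and 152 ± 71.1 (SD) in the 4 controls, a log2 change of 1.74 (SE 0.32, limma adjusted p = 0.00373), with 0.49 to 1.43 on its 3 other probes. Ran, the GTPase that loads exportins with their cargo, changed by 0.91 (limma adjusted p = 0.00828) and was picked for its role after its values had been seen.

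Of the 4 other nuclear transport receptors tested, 1 was called higher and none lower (median 0.50). That gene was Cse1l, which returns importin-alpha to the cytoplasm, with 516 ± 108 in tumors against 221 ± 33.4 in controls (SD, 4 arrays each) and a log2 change of 1.16 (SE 0.21, limma adjusted p = 0.00322). Xpo5 had a log2 change of 1.21 beside it. No test of a difference between Xpo5 and the other receptors was made.

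Of 9 tested genes of precursor binding, tailing and decay, 6 were higher and none lower (median 0.65). Exosc10, a nuclease of the nuclear exosome, had 311 ± 42.3 in the tumors and 108 ± 29.9 in the control kidneys (SD, n = 4 a group), a log2 change of 1.42 (SE 0.22, limma adjusted p = 0.00175). Xrn1, the cytoplasmic nuclease that degrades RNA from its 5′ end, had 50.5 ± 8.04 (SD) in the 4 tumors and 11.8 ± 3.15 (SD) in the 4 controls, and 2 of the 4 controls were above background. Its log2 change was 1.26 (SE 0.17, limma adjusted p = 0.00107). Among the partners of Lin28, Tut7, a uridylyltransferase that tails let-7 precursors, had 994 ± 93.7 in tumors against 648 ± 194 in controls (SD, 4 arrays each), a log2 change of 0.65 (limma adjusted p = 0.0510) that did not pass. Tut4, the other tailing enzyme, was above background in tumor 4 only. The 2 Lin28a probes lay between -0.7 and 11.2 and between -11.2 and -0.2, were above background on no array and were not tested, so they give no check of the transgene. These 3 genes were picked for their role after their values had been seen.

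Of 22 tested genes of Argonaute loading and silencing, 13 were higher and none lower (median 0.85). Pan2, a deadenylase subunit that shortens the tails of target transcripts, had 393 ± 62.8 in the tumors and 114 ± 45.8 in the control kidneys (SD, n = 4 a group), a log2 change of 1.71 (SE 0.27, limma adjusted p = 0.00181), with 1.29 to 1.56 on its 2 other probes. Cnot3, a subunit of the Ccr4-Not deadenylase, had 258 ± 103 (SD) in the 4 tumors and 82.5 ± 22.5 (SD) in the 4 controls, a log2 change of 1.43 (SE 0.30, limma adjusted p = 0.00582), while its 2 other probes changed by 0.16 to 0.42. Ago4, the remaining Argonaute, was picked for its role after its values had been seen and had a log2 change of 0.24 that did not pass (limma adjusted p = 0.332). Its signal was above background in 1 of the 4 tumors and in no control, and its other probe changed by -0.05, so the size of its change is not settled.

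**Figure D4:**
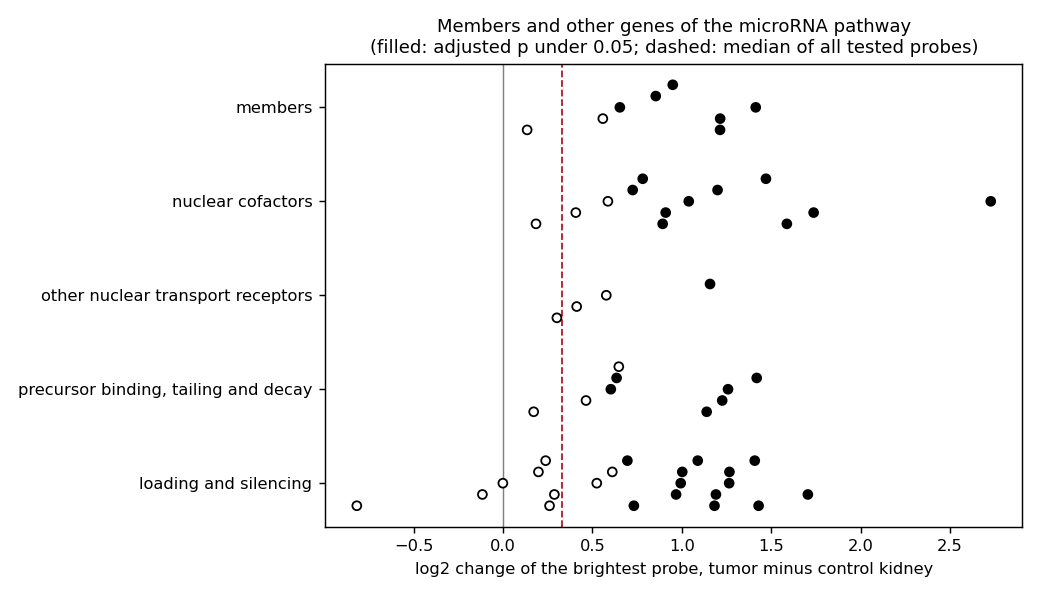
Log2 change, tumors minus controls, of the 8 tested members and of the 48 other tested genes of the microRNA pathway, in rows by role. Each point is 1 gene by its probe with the highest mean, filled where the adjusted p was under 0.05. No filled point lies below 0, and the dashed line is the median over all tested probes (0.33).

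Several cell-type and cycle markers differed between the same arrays. Summed intensities of the cycling-cell markers were 1387 to 2755 in tumors and 74.7 to 105 in controls, with 3 of 3 tested markers called higher. Of these, Top2a was above background in 2 and Cdk1 in 1 of the 4 controls. Sums for the nephron progenitor markers were 2961 to 5160 in tumors and 141 to 314 in controls (6 of 6 higher), with Six2, Eya1 and Osr1 not above background in any control. Most of these sums was Wt1, with 2488 to 3770 in tumors and 96.2 to 211 in controls. For stroma the sums were 6795 to 17050 in tumors and 919 to 2623 in controls (5 of 5 higher), with Col1a2 not above background in any control. Macrophage marker sums were 854 to 4672 in tumors and 102 to 949 in controls (3 of 3 higher). Proximal tubule marker sums were 698 to 19270 in tumors and 26170 to 37220 in controls (5 of 5 lower), with Lrp2 not above background in any tumor, and tumor 1 held the 19270 while tumors 2 to 4 held 698 to 2172. Loop and distal tubule sums were 713 to 13300 in tumors and 15630 to 27060 in controls (2 of 3 lower), and collecting duct sums were 116 to 681 in tumors and 880 to 1246 in controls (2 of 2 lower). Endothelial markers (0 of 4 called, sums 1136 to 4752 in tumors and 1400 to 2573 in controls) and the 1 podocyte marker with a probe, Podxl (401 to 1496 in tumors and 404 to 821 in controls), did not pass, also at an unadjusted p under 0.05, and T and B cell markers summed to 19.5 to 60.6 in tumors and -3.1 to 90.7 in controls. The part of these differences in the rise of the members was not tested.

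Some transcripts of the sex chromosomes also differed. Xist, made by the inactive X chromosome, read 213.2, 155.1, 222.9 and 300.9 in tumors 1 to 4, against 7.0, 34.8, 2.2 and 8.1 in controls 1 to 4. The Y-linked gene Kdm5d read 4.6, 1.0, -0.4 and 2.8 in tumors 1 to 4, against 44.9, -5.6, 44.7 and 53.7 in controls 1 to 4. Kdm5d was above background in 3 controls and in no tumor. The Y-linked gene Uty was not called (limma adjusted p = 0.281) and read 7.5 to 25.1 in tumors, against 10.3 to 40.9 in controls. It was above background in 2 tumors and 3 controls, so Uty did not split the groups. By Xist and Kdm5d, sex and group were largely confounded on these arrays. Control 2 stood apart from the other controls, with 34.8 for Xist, -5.6 for Kdm5d and 10.3 for Uty. Eif2s3y, also Y-linked, was not above background on any array. The part of sex in the member changes was not tested.

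The promoters of 3 members that were called higher are shown as examples. They are the 250 bases before the RefSeq start on GRCm38.p6, with GCATGCGC, the core of the NRF1 motif, and the CCAAT box in capitals, each on either strand.
Xpo5, chr17:46202561-46202810, plus strand: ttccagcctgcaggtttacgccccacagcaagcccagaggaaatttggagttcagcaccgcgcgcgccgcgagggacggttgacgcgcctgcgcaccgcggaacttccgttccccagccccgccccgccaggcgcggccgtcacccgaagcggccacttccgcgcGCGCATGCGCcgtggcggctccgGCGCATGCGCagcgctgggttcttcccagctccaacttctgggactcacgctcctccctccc
Tarbp2, chr15:102517942-102518191, plus strand: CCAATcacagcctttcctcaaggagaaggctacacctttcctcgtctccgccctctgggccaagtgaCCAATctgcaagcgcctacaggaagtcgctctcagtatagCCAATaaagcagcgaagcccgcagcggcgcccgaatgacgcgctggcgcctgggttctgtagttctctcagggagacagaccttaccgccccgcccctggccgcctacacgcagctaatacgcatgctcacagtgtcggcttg
Dgcr8, chr16:18289169-18289418, minus strand: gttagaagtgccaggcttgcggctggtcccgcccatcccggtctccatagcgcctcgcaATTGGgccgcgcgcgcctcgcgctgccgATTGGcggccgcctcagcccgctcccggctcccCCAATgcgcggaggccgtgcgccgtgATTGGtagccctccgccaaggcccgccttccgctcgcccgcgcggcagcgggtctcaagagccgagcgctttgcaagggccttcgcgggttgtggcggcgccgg
Of the 9 members, 8 matched the table of promoters. GCATGCGC was found in Xpo5 alone among them and in 2.26% of all 32851 windows of this length. Xpo5 had 4 matches over both strands, because each GCGCATGCGC holds overlapping matches, with a match on either strand. CCAAT was found in Drosha, Dgcr8, Dicer1, Tarbp2 and Ago1, and in 33.8% of all windows. Dgcr8 held 4 matches and Drosha and Tarbp2 held 3 each, and 3 or more were found in 2.79% of windows. The GC box GGGCGG occurred in 7 of the 8 and in 32.7% of all windows, and CCGGAAG, an Ets core, in Drosha and Ago3 and in 6.91%. CACGTG, the E-box that Myc binds, occurred in 6.02% of windows and TTTCCCGC, an E2F core, in 0.895%, and neither in the 8 members. These motifs were searched on both strands after the sequences had been seen, and a match is a description of the letters, not of a bound site.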

How the data were processed

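The deposited series values of 8 arrays are probe intensities on a linear scale, already background-subtracted and scaled by the authors to an equal mean, as the values show. The sources used here do not name the software for these steps. A second table was not used, because its 16 columns match no sample's labels. Groups follow the labels, and p-values measure the spread between these samples. The log2 of each intensity plus 16 was used, with negative intensities counted as 0, which makes 4 the lowest value. A filter at the 40th percentile of the probe means took out 10279 probes and left 15418. Noise was the scaled median size of an array's values below 0. Tumors were compared with controls with limma 3.58.1 in R 4.3.3 (lmFit, eBayes, two-sided, Benjamini-Hochberg adjustment, threshold 0.05, no covariate), tested on simulated data. Of the probes, 23978 carry 1 symbol and 1719 none, and 0 symbols changed when 23962 probes were matched by gene number to the GRCm38.p6 annotation. Its chromosomes and the RefSeq sequences of that build were used for sequences only.

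Named were all members with every probe, for each of the 4 pathway groups the 2 called genes with the largest change in each direction, and for each member the 2 genes nearest in pattern. Exceptions are said to be so where they stand. The members, lists and tests were chosen with earlier results of these data known. Altogether 23 alternatives were run. They were 4 other scalings, 4 or 64 added before log2, no filter, probes above background on all arrays, the mean or the brightest probe per gene, array weights, a robust prior with an intensity trend, a replicate block, age in the model, the 4-month arrays alone and each array left out in turn. The number of arrays limits the precision. Probe sequences were not used here, so whether a probe could bind other transcripts was not examined.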

Additional observations from a re-analysis of the deposited data

Results flagged for a closer look

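The Ago3 probe ILMN_1233354 had an intensity of -6.7 in control 1, while the other 3 controls read 5.9 to 6.1. The gap is large against the range of the controls (Dixon's ratio 0.972, above its 95% critical value). None of the 4 controls was above background for this probe. Of 28 groups of 4 examined this was the only such value, and chance gives about 1 in 20.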

How the results depend on the processing

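Over 23 alternatives the 12 tested member probes gave 264 values, of which 202 kept the direction and the side of the threshold, 53 lost the call, 5 gained it and 4 changed sign. The 4 were those of Dis3l2, at -0.25 under quantile normalization with a floor of 1, -0.18 under normexp correction with quantile normalization, -0.17 under an equal median and -0.33 under cyclic loess, none of them called. In the same order of settings, 2, 3, 3 and 2 member genes were called higher, against 6 in the main setting, and 3 to 6 with each array left out. Of the other pathway genes 30 were higher and 0 lower, with 19 higher under quantile normalization, 1 lower under array weights and 0 to 1 lower with each array left out. Over all probes, 4775 were higher and 1775 lower. Of these counts, those higher were 2596 under quantile normalization, 2851 under normexp, 2639 under cyclic loess and 7185 under array weights, and those lower were 2867 under cyclic loess and 2768 under array weights. Among called probes, the share higher was 72.9% in the main setting, 53.9% under quantile normalization, 53.7% under normexp, 55.1% under an equal median and 47.9% under cyclic loess. A scaling that equalizes medians or distributions removes the common shift of 0.33 by construction, and no value tells which scaling is right. The replicate block gave 7 member genes higher, and 4918 probes higher and 1803 lower over all. Deviations of samples with the same number correlated at 0.211, 0.225, 0.128 and 0.069, so 3 of the 4 pairs were over 0.1, and the pair with number 1 also shares its age. Not every sample correlated best with its own number, and whether the numbers pair the samples is not settled by these values. Dim probes (Ago2, Ago3) had no value where probes above background on all arrays were required. Ago1 is limited by signal, since it was not above background on any array.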
